A study of Homo sapiens with 3 samples.

Results

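Clade B serpins were compared among 3 lines of MDA-MB-468 (MM468) cells, an established line derived from triple-negative breast cancer (TNBC). The genes described were SERPINB1, SERPINB2, SERPINB3, SERPINB4, SERPINB5, SERPINB6, SERPINB7, SERPINB8, SERPINB9 and SERPINB13, taken by gene symbol as 10 of the 46427 genes in the table of read counts. They were chosen by symbol with their read counts in all 3 libraries already known, and were selected on the high count of SERPINB2 in the adriamycin-resistant library among other values, so every comparison among the libraries is a description with no test. The 3 libraries came from parental MM468 cells without drug treatment, from adriamycin-resistant cells that survived exposure to 10 to 140 nM adriamycin, and from paclitaxel-resistant cells that survived 2 to 320 nM paclitaxel. Adriamycin (doxorubicin) is an anthracycline that intercalates into DNA and poisons topoisomerase II, and paclitaxel is a taxane that stabilizes microtubules. All 3 lines carry the genotype WT in the labels, and the resistant lines are survivors of long drug exposure rather than briefly treated cells. The sources used here do not give whether a resistant line is a clone, or whether drug was present at harvest. Each line was sequenced as 1 library, so no difference has a replicate check, no SD can be given, and line, drug and library cannot be told apart.

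Serpins are protease inhibitors that work as a bait. The target protease cuts the exposed reactive loop, the loop inserts into the body of the serpin, and the protease is dragged along and locked in a distorted, inactive complex. Clade B serpins differ from the secreted serpins of plasma in lacking a classical signal peptide, so most act inside the cell, where they limit damage from lysosomal, granule and inflammatory proteases. In humans they lie in a cluster on chromosome 6 and another on chromosome 18, and several members of the chromosome 18 cluster are known from stratified squamous epithelium.

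The libraries held 32704885 counts in parental cells, 47567927 in adriamycin-resistant cells and 43242628 in paclitaxel-resistant cells. Counts were put on a common scale by the trimmed mean of M-values (TMM), and are given as raw counts or, per 1000000 counts of the scaled library, as scaled CPM. At these depths 3 counts correspond to a scaled CPM of 0.0968, 0.0661 and 0.0627 in the 3 libraries, in the same order. A gene was compared when 1 of the 2 libraries held 10 or more counts. Where the lower library held 0 counts, the fold change is a lower bound computed against 3 counts. The ranges in parentheses after fold changes are 95% intervals, exact binomial ones for a pair of counts, which take in counting error and no variation between cultures. The lower bounds do not take in the counting error of the higher library. The labelled epithelial cell type was checked against its markers. None of the 6 epithelial markers (EPCAM, CDH1, KRT8, KRT18, KRT19 and KRT7) was at 0, and their summed TPM (the authors' level per transcript length) was 7998, 8683 and 7381 in parental, adriamycin-resistant and paclitaxel-resistant cells. The summed TPM of the 5 fibroblast markers ranged from 7.84 to 13.4, that of the 4 leukocyte markers from 2.52 to 13.8, and that of the 3 endothelial markers from 0.304 to 0.408, with COL1A2 at 0 in every library. The part of such traces in the results was not tested. In bulk RNA, a higher share of cells with a transcript and more transcript per cell cannot be told apart.

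Because 5 members stood at 6 or fewer counts in parental cells and reached at least 10 counts in a resistant line, their promoters are shown first. The sequences are the 250 bases before the start of each gene in RefSeq GRCh38.p14, read on the strand of the gene. They come from chr18:63887455-63887704 (plus strand) for SERPINB2, chr18:63661894-63662143 (minus) for SERPINB3, chr18:63644257-63644506 (minus) for SERPINB4, chr18:63969831-63970080 (plus) for SERPINB8 and chr18:63587093-63587342 (plus) for SERPINB13. Capitals mark matches on either strand to 3 short motifs. These were an AP-1 site (TGANTCA, which is its own reverse complement), the core element bound by the aryl hydrocarbon receptor (GCGTG, or CACGC on the other strand) and a TATA box (TATAAA, or TTTATA).
SERPINB2: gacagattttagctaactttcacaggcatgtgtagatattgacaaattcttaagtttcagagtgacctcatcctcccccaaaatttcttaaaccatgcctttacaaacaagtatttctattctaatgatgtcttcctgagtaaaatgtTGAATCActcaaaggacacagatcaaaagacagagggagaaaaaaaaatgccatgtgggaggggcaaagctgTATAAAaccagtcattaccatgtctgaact
SERPINB3: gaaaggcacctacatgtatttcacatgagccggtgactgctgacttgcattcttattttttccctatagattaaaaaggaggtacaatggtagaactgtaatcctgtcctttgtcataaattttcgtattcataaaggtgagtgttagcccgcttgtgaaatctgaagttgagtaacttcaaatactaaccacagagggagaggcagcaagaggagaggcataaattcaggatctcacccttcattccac
SERPINB4: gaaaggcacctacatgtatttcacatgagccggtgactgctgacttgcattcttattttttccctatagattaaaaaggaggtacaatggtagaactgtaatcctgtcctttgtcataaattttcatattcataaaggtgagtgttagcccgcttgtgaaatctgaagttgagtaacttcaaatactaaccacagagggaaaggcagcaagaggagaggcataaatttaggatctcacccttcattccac
SERPINB8: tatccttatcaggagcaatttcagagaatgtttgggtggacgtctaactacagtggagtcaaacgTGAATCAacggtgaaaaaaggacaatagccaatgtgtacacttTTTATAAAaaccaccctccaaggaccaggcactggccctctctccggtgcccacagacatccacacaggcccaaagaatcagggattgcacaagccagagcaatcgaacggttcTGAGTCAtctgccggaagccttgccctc
SERPINB13: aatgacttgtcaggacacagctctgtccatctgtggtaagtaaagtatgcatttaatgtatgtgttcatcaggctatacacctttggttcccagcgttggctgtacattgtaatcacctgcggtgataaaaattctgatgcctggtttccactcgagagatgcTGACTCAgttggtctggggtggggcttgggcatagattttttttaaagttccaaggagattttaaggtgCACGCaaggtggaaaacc

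The SERPINB2 promoter held the AP-1 letters TGAATCA with their first base 102 bases before the start, and TATAAA 30 bases before it. SERPINB8 held TGAATCA 185 bases before the start and TGAGTCA 28 bases before it, and its TATAAA, 140 bases before the start, overlapped TTTATA. SERPINB13 held TGACTCA 87 bases before the start and CACGC 18 bases before it. The promoters of SERPINB3 and SERPINB4 held none of the 3 motifs, and 247 of their 250 bases were identical (98.8%), with 3 that differed. Over the same 250 bases before every RefSeq start, the AP-1 letters were found in 2308 of 35114 windows (6.57%). Among the 15 windows of the members, which count alternative starts of a gene separately, 6 held them (40%), and these belonged to 5 of the 10 genes, namely SERPINB2, SERPINB5, SERPINB7, SERPINB8 and SERPINB13. GCGTG was found in 32.2% of all windows and in 8 of the 15 member windows (53.3%), and TATAAA in 10.7% of all windows and in 4 of the 15 member windows (26.7%). Counted by gene, which takes in all starts of a gene, the AP-1 letters were found in 5 of the 10 members and 7.14% of 15513 protein-coding genes, GCGTG in 5 of 10 and 46.0%, and TATAAA in 4 of 10 and 11.9%. A pair of the windows of SERPINB6 overlap and hold the same GCGTG letters. These matches describe letters in a window. Of the 5 members with AP-1 letters, 4 (SERPINB2, SERPINB7, SERPINB8 and SERPINB13) were at least 2-fold higher in adriamycin-resistant than in parental cells. Of the 5 without them, 2 were (SERPINB3 and SERPINB4). All 5 with the letters lie on chromosome 18, and SERPINB1, SERPINB6 and SERPINB9, without them, lie on chromosome 6. SERPINB3 and SERPINB4, also without the letters, lie on chromosome 18. Letters and cluster thus overlap in large part but do not coincide. The members were chosen with these fold changes known, so nothing is read from this split, and a link was not tested.

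The comparison of adriamycin-resistant with parental cells asks which genes differ in cells that outlived an anthracycline. Of the 10 members, 6 were at least 2-fold higher in adriamycin-resistant cells (SERPINB2, SERPINB3, SERPINB4, SERPINB7, SERPINB8 and SERPINB13), where 11.1% of the 17950 genes compared were. SERPINB4 was counted on 10 counts against 0. No member was at least 2-fold lower, where 11.3% of genes were. The parental library held 0 counts for 4 of the 10 (SERPINB3, SERPINB4, SERPINB8 and SERPINB13), which was so for 2.66% of genes compared. A gene compared at 0 parental counts is at least 2-fold higher by construction, since 10 or more counts are set against 3. These 4 could therefore not have been lower. A 4-fold difference was reached by 4 members (SERPINB2, SERPINB3, SERPINB8 and SERPINB13), where 3.64% of genes reached it. The median log2 fold change was 1.16 over the 10 members and 0.03 over all genes compared. The median of the members lies between SERPINB7, at 1.14, and SERPINB4, at 1.19, which is a bound set by 10 counts. The other 4 members (SERPINB1, SERPINB5, SERPINB6 and SERPINB9) had fold changes between 0.690 and 0.971. Since the members were chosen with these values in view, nothing is read from their count or their median against the background.

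In paclitaxel-resistant cells, 8 members passed the count minimum of the comparison with parental cells, and 3 of them (SERPINB2, SERPINB8 and SERPINB13) were at least 2-fold higher, where 20.6% of 19099 genes were. All 3 were also at least 4-fold higher, where 7.76% of genes were, and 2 of them (SERPINB8 and SERPINB13) were at 0 counts in parental cells, as were 5.72% of genes. None was at least 2-fold lower, where 13.5% of genes were. At 0 parental counts a compared gene is at least 2-fold higher by construction and cannot be lower, as for SERPINB8 and SERPINB13 here. SERPINB3 and SERPINB4 could not be compared, with at most 2 counts in either library. The median log2 fold change over the 8 members was -0.12, and 0.08 over all genes. Both comparisons share the parental library, so a low or high parental count enters both. Between the resistant lines, 4 members were at least 2-fold higher in adriamycin-resistant cells (SERPINB2, SERPINB3, SERPINB4 and SERPINB7), where 13.3% of 19327 genes were, and 2 were at least 2-fold lower (SERPINB8 and SERPINB13), where 20.1% of genes were. SERPINB4, at 0 counts in paclitaxel-resistant cells, was at least 2-fold higher by the same construction. SERPINB2 and SERPINB3 made up the 2 members that were at least 4-fold higher, where 4.02% of genes were. The members were chosen with these values in view, so nothing is read from these counts against the background either.

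**Figure D1:**
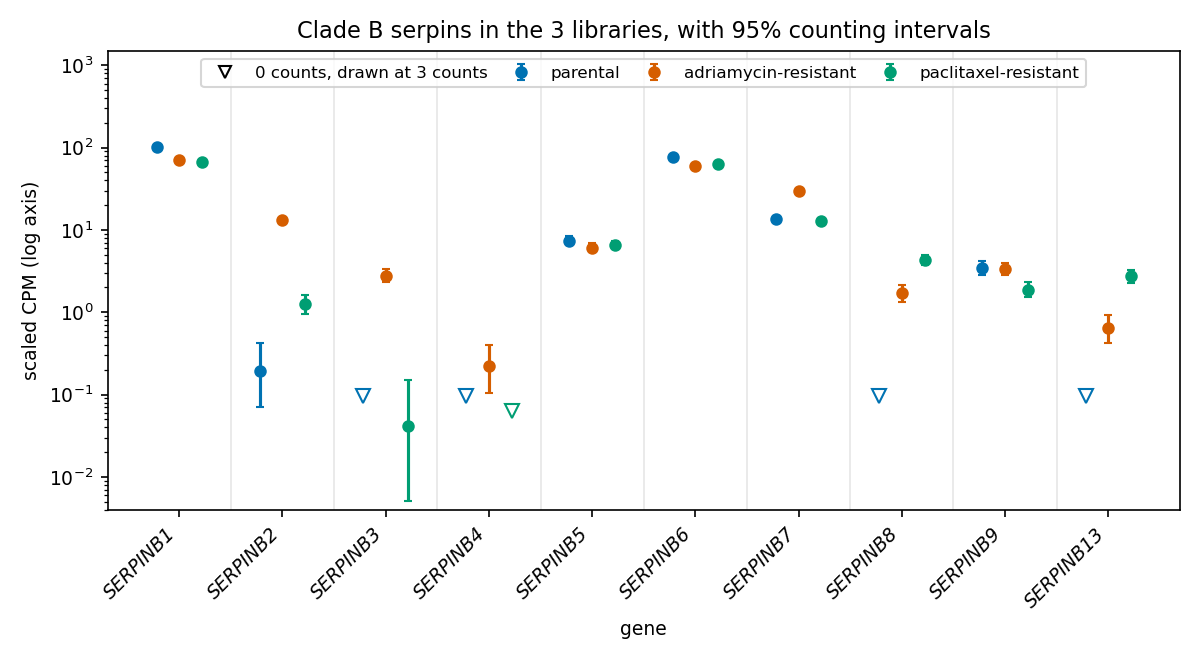
Scaled CPM (log axis) of each clade B serpin in the 3 libraries, with points for the values, bars for 95% counting intervals, and open triangles at the level of 3 counts where a library held 0 counts. Values can be compared between libraries within a gene, not between genes, since they are not per length. SERPINB2 went from 0.194 in parental cells to 13.0 in adriamycin-resistant cells, while SERPINB1, SERPINB5, SERPINB6 and SERPINB9 were within 2-fold across the 3 libraries.

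SERPINB2, the plasminogen activator inhibitor type 2, inhibits urokinase and tissue plasminogen activator and is also found inside the cell. SERPINB2 (NCBI Gene ID 5055, plus strand of chromosome 18 from 63887705 to 63903888 in RefSeq GRCh38.p14) had 6 counts in parental cells, 591 in adriamycin-resistant cells and 60 in paclitaxel-resistant cells. The scaled CPM was 0.194, 13.0 and 1.25 in the same order. The adriamycin-resistant library was the highest and the parental library the lowest, and the intervals of the 3 levels did not overlap. The level was 67.3-fold higher in adriamycin-resistant than in parental cells (interval 30.7 to 184), a fold change above that of 99.8% of genes compared. It was 6.48-fold higher in paclitaxel-resistant than in parental cells (2.81 to 18.4), above 95.7% of genes. The members were selected on the high SERPINB2 count among other values, so nothing is read from these ranks. It was 10.4-fold higher in adriamycin-resistant than in paclitaxel-resistant cells (7.95 to 13.8). The width of the intervals against parental cells comes from the 6 parental counts. In GENCODE v29, 500 of the 2742 stretches of 50 transcript bases of SERPINB2 (18.2%) are also in transcripts of its neighbor SERPINB10. In the RefSeq positions the genes do not overlap, with SERPINB10 from 63907958 to 63936111. SERPINB10 was at 0 counts in every library.

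The plasminogen activators that SERPINB2 inhibits had other patterns over the libraries. PLAU, which encodes urokinase, had 1142 counts in parental, 1793 in adriamycin-resistant and 1295 in paclitaxel-resistant cells, a fold change against parental cells of 1.07 (0.996 to 1.16) and 0.735 (0.679 to 0.797). PLAT, which encodes tissue plasminogen activator, was low, with 8, 41 and 51 counts in the same order, and was 3.50-fold (1.62 to 8.65) and 4.13-fold (1.95 to 10.1) higher in the resistant lines. PLAU was within 2-fold across the libraries, and PLAT was at most 51 counts. PLAUR, the urokinase receptor, differed in the paclitaxel-resistant line, with 902, 1291 and 7150 counts and a 5.14-fold higher level than in parental cells (4.80 to 5.51). PLAUR was thus highest in the paclitaxel-resistant library, where SERPINB2 was lower than in the adriamycin-resistant library. PLG, which encodes plasminogen itself, was at 0 counts in every library.

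Over the whole list of 17 genes of plasminogen activation, 12 were compared between adriamycin-resistant and parental cells, with 3 at least 2-fold higher, 3 at least 2-fold lower and a median log2 fold change of 0.03. In paclitaxel-resistant cells 13 were compared, with 5 higher, 3 lower and a median of 0.27. Among all genes compared, 11.1% were higher and 11.3% lower in the former comparison, and 20.6% and 13.5% in the latter. S100A10, a plasminogen receptor subunit, was 2.33-fold lower in adriamycin-resistant cells than in parental cells, with 2930 against 4664 counts.

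SERPINB3 and SERPINB4 encode the squamous cell carcinoma antigens, near-identical neighbors. SERPINB3 inhibits some cysteine cathepsins, and SERPINB4 inhibits cathepsin G and mast cell chymase. SERPINB3 (Gene ID 6317, minus strand of chromosome 18 from 63655197 to 63661893) had 0 counts in parental, 126 in adriamycin-resistant and 2 in paclitaxel-resistant cells. Its level in adriamycin-resistant cells was at least 28.7-fold higher than in parental cells, and above that in paclitaxel-resistant cells by a log2 difference of 6.05 (4.17 to 9.11), which rests on 2 counts in the lower library and was 5.06 with a prior count of 2, 4.36 in TPM with a pseudocount of 0.1, 2.00 in TPM with a pseudocount of 1 and 1.23 in FPKM with a pseudocount of 1. SERPINB4 (Gene ID 6318, minus strand from 63637259 to 63644256) had 0, 10 and 0 counts, at least 2.28-fold and at least 3.51-fold higher in adriamycin-resistant cells than in parental and in paclitaxel-resistant cells when set against 3 counts. Counting error of the 10 counts takes these bounds down to 1.53-fold, which is under 2-fold, and 2.36-fold. Counts above 2 for this pair were thus found in adriamycin-resistant cells, with SERPINB3 holding most of them. Of the 50-base stretches of their transcripts, 413 were shared, 23.3% of those of SERPINB3 and 20.1% of those of SERPINB4. The division of reads within the pair is therefore uncertain, and the 10 counts of SERPINB4 could include reads of SERPINB3.

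SERPINB13, also called hurpin or headpin, is a keratinocyte serpin that inhibits cathepsins K and L. It had 0 counts in parental, 29 in adriamycin-resistant and 130 in paclitaxel-resistant cells (Gene ID 5275, plus strand of chromosome 18 from 63587343 to 63599192). Its level was at least 6.61-fold higher in adriamycin-resistant and at least 28.1-fold higher in paclitaxel-resistant than in parental cells, with 95% lower limits of 5.04-fold and 22.5-fold. Here the paclitaxel-resistant library was the highest, and the adriamycin-resistant level was 4.25-fold lower than the paclitaxel-resistant level (2.83 to 6.60). SERPINB8, an inhibitor of the proprotein convertase furin, had the same order of libraries. Its counts were 0 in parental, 77 in adriamycin-resistant and 206 in paclitaxel-resistant cells (Gene ID 5271, plus strand from 63970081 to 64019779). Its level was at least 17.5-fold and at least 44.5-fold higher than in parental cells, with 95% lower limits of 13.9-fold and 35.9-fold. It was 2.54-fold lower in adriamycin-resistant than in paclitaxel-resistant cells (1.94 to 3.34). SERPINB2, SERPINB3 and SERPINB4 were thus highest in the adriamycin-resistant library, and SERPINB8 and SERPINB13 in the paclitaxel-resistant library. The 3 counts taken as the limit for 0 counts in parental cells are a scaled CPM of 0.0968, and the upper end of the 95% interval of 0 counts is 0.119.

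SERPINB7, or megsin, was first known from the kidney mesangium and is expressed in the epidermis, where its loss causes a palmoplantar keratosis. Of the 6 members at least 2-fold higher in adriamycin-resistant than in parental cells, it was the member with more than 100 counts in parental cells. SERPINB7 (Gene ID 8710, plus strand of chromosome 18 from 63753057 to 63805370) had 421 counts in parental, 1355 in adriamycin-resistant and 620 in paclitaxel-resistant cells, or a scaled CPM of 13.6, 29.9 and 13.0. Its log2 level was 1.14 higher in adriamycin-resistant than in parental cells (0.98 to 1.30) and 1.20 higher than in paclitaxel-resistant cells (1.07 to 1.34). With counts scaled by library size alone, the log2 difference between the resistant lines was 0.99, just under 2-fold. Paclitaxel-resistant and parental cells did not differ beyond counting error in the TMM-scaled counts (fold change 0.955, 0.842 to 1.08), a log2 value of -0.07 that became 0.16 with library size alone, 0.13 in FPKM and 0.21 in TPM, the last 2 with a pseudocount of 1.

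SERPINB5, or maspin, is a mammary epithelial serpin that does not inhibit proteases. SERPINB5 (Gene ID 5268, plus strand of chromosome 18 from 63476958 to 63505085) had 230 counts in parental, 276 in adriamycin-resistant and 315 in paclitaxel-resistant cells, or a scaled CPM of 7.42, 6.08 and 6.59. It was 1.22-fold lower in adriamycin-resistant than in parental cells (1.02 to 1.46). In paclitaxel-resistant cells the fold change of 0.888 had an interval that included no change (0.747 to 1.06), and its sign turned with library size alone, FPKM and TPM. SERPINB5 lies at the end of the same cluster as the members that were at or near 0 in parental cells, and was within 2-fold in each comparison.

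**Figure D2:**
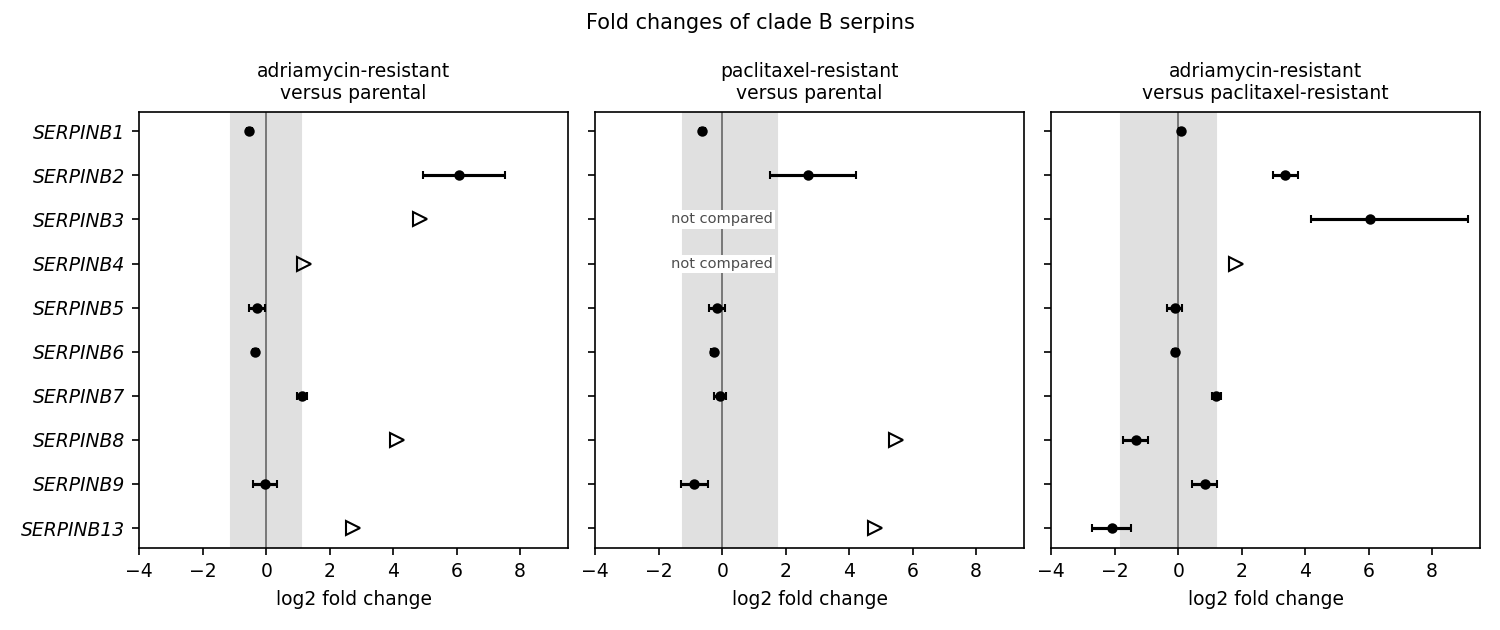
Log2 fold change of each clade B serpin in the 3 comparisons, with points for ratios of scaled counts, bars for 95% counting intervals, open triangles for lower bounds where the lower library held 0 counts, and grey bands from the 10th to the 90th percentile of all genes compared. SERPINB2 lies at 6.07 in adriamycin-resistant versus parental cells, outside a band from -1.09 to 1.09, and SERPINB8 and SERPINB13 lie on the negative side in adriamycin-resistant versus paclitaxel-resistant cells. The members were selected on the high SERPINB2 count among other values, so nothing is read from its place outside the band.

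The chromosome 6 members, SERPINB1, SERPINB6 and SERPINB9, inhibit proteases of neutrophil and lymphocyte granules, and all were expressed in every library. SERPINB1 inhibits neutrophil elastase, proteinase 3 and cathepsin G. It had 3176 counts in parental, 3208 in adriamycin-resistant and 3174 in paclitaxel-resistant cells (Gene ID 1992, minus strand of chromosome 6 from 2832332 to 2841863), or a scaled CPM of 102, 70.7 and 66.4. The parental library was the highest, and SERPINB1 was 1.45-fold lower in adriamycin-resistant (1.38 to 1.52) and 1.54-fold lower in paclitaxel-resistant cells (1.47 to 1.62). The paclitaxel-resistant difference shrank from a log2 value of -0.63 to -0.40 with library size alone. It was -0.37 in FPKM and -0.29 in TPM, each with a pseudocount of 1. The adriamycin-resistant value of -0.53 became -0.62 in TPM with that pseudocount. The 2 resistant lines were close, with a fold change of 1.07 (1.01 to 1.12) whose sign turned with library size alone, FPKM and TPM.

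SERPINB6 inhibits cathepsin G among other serine proteases. It had 2360 counts in parental, 2706 in adriamycin-resistant and 3034 in paclitaxel-resistant cells (Gene ID 5269, minus strand from 2948159 to 2971793), or a scaled CPM of 76.1, 59.6 and 63.5. It was 1.28-fold lower in adriamycin-resistant (1.21 to 1.35) and 1.20-fold lower in paclitaxel-resistant cells (1.14 to 1.27). The paclitaxel-resistant difference shrank from a log2 value of -0.26 to -0.04 with library size alone. SERPINB9 protects cells from granzyme B of cytotoxic lymphocytes. It had 107, 152 and 90 counts (Gene ID 5272, minus strand from 2887270 to 2903309), or a scaled CPM of 3.45, 3.35 and 1.88. Parental and adriamycin-resistant cells did not differ beyond counting error (fold change 0.971, 0.753 to 1.26), and SERPINB9 was 1.83-fold lower in paclitaxel-resistant than in parental cells (1.37 to 2.45). Its pseudogene SERPINB9P1, named here after its values were seen, had 46, 66 and 14 counts and was 5.07-fold lower in paclitaxel-resistant cells (2.74 to 9.98).

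Levels of different genes were compared per length, with the authors' TPM values. SERPINB6, SERPINB1 and SERPINB7 were the 3 highest members in every library, in that order. SERPINB6 had a TPM of 98.4 in parental, 76.6 in adriamycin-resistant and 98.3 in paclitaxel-resistant cells, SERPINB1 83.7, 54.2 and 68.1, and SERPINB7 13.4, 28.4 and 15.7. The summed TPM of the 10 members was nearly level, at 203, 184 and 197. Within that sum the share of SERPINB7 was 6.58% in parental, 15.4% in adriamycin-resistant and 7.95% in paclitaxel-resistant cells, and that of SERPINB2 was 0.0920%, 7.46% and 0.866%. SERPINB2 was the 4th member by TPM in adriamycin-resistant cells, at 13.7, and the 7th in paclitaxel-resistant cells, at 1.71. SERPINB8, at 3.39, and SERPINB13, at 1.98, stood above SERPINB2 in paclitaxel-resistant cells.

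The position of the members was set beside the genes around them. On chromosome 18 the clade B genes run from SERPINB5 to SERPINB8, with SERPINB10, SERPINB11 and SERPINB12 among them. SERPINB10 and SERPINB11 were at 0 counts in every library, and SERPINB12 had 2, 11 and 4 counts in parental, adriamycin-resistant and paclitaxel-resistant cells, a fold change of 3.76 in adriamycin-resistant cells with an interval that included no change (0.820 to 34.9). The 11 neighbors were the 5 nearest protein-coding genes on each side and HMSD, which lies inside the cluster and was at 0 counts. Of these, 6 were compared (ZCCHC2, PHLPP1, BCL2, KDSR, VPS4B and TMX3). All but TMX3 lie on the SERPINB5 side of the cluster. TMX3 starts at 68673688, well beyond SERPINB8, which ends at 64019779, so no compared neighbor lies close to SERPINB8. None of the 6 compared neighbors was at least 2-fold changed in adriamycin-resistant against parental cells, where 11.1% of all genes were higher and 11.3% lower. Their log2 fold changes lay between -0.92 and -0.55 with a median of -0.70. The members of the same stretch ranged from -0.29 for SERPINB5 to 6.07 for SERPINB2. In paclitaxel-resistant cells the neighbors ranged from -1.91 to 0.45. BCL2 was the neighbor that was at least 2-fold lower, with 349 counts in parental and 143 in paclitaxel-resistant cells, where 13.5% of all genes were lower.

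On chromosome 6, all 10 neighbors were compared. In adriamycin-resistant against parental cells 1 was at least 2-fold higher, FOXF2 with 286 against 14 counts, and 3 were lower, FOXC1, GMDS and MYLK4. Of all genes compared, 11.1% were higher and 11.3% lower. The median log2 fold change of the neighbors was -0.69, and the 3 members among them, SERPINB1, SERPINB9 and SERPINB6, were at -0.53, -0.04 and -0.35. In paclitaxel-resistant cells the median was -0.39 and the members were at -0.63, -0.87 and -0.26.

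**Figure D3:**
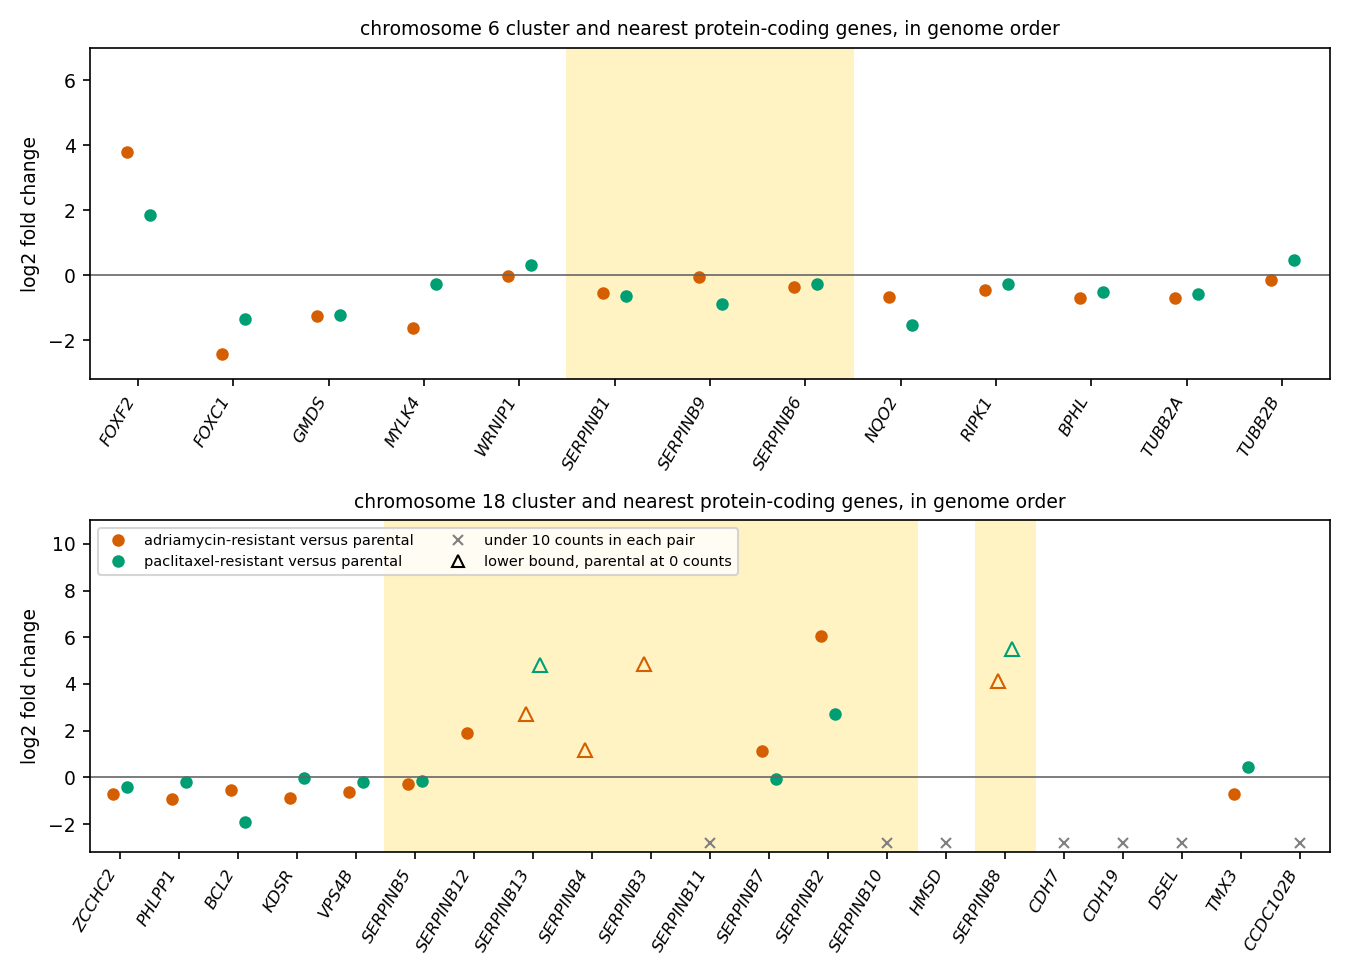
Log2 fold change against parental cells for the clade B serpins (shaded) and their nearest protein-coding neighbors in genome order on chromosome 6 (upper panel) and chromosome 18 (lower panel), with open triangles for lower bounds and crosses for genes under 10 counts in both comparisons. In adriamycin-resistant cells the chromosome 18 neighbors lie between -0.92 and -0.55, and SERPINB2, SERPINB3, SERPINB4, SERPINB7, SERPINB8, SERPINB12 and SERPINB13 lie above 1.

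The genes whose pattern over the 3 libraries was nearest to that of SERPINB2 were taken from 12352 protein-coding genes with 100 or more counts in a library, by Euclidean distance of log2 scaled counts relative to parental cells. With 3 libraries this is a description of 2 differences per gene. TP63, a transcription factor of basal and squamous epithelium, was at a distance of 1.02 with 54, 2453 and 553 counts in parental, adriamycin-resistant and paclitaxel-resistant cells. NNMT, which encodes nicotinamide N-methyltransferase, was at 1.10 with 26, 3438 and 125 counts. CSF3R, the receptor for granulocyte colony-stimulating factor, was at 1.18 with 7, 1418 and 48 counts. SGPP2, a sphingosine phosphate phosphatase, was at 1.66 with 36, 1275 and 178 counts. PCDHA1 was the nearest, at 0.909 with 2, 142 and 35 counts, but clustered protocadherins share exons and its counts are uncertain. All 5 were highest in adriamycin-resistant and lowest in parental cells, as their selection requires.

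Proteases that are known or possible targets of clade B serpins, with others of the same families, were taken as a list of 21 genes. ELANE, PRTN3, CTSG, CMA1 and GZMB, which encode the granule proteases inhibited by SERPINB1, SERPINB4, SERPINB6 and SERPINB9, were at 0 counts in every library. Of the 15 genes compared between adriamycin-resistant and parental cells, 4 stood 2-fold or more above and 3 stood 2-fold or more below, with a median log2 fold change of -0.21, beside 11.1% and 11.3% of all genes. In paclitaxel-resistant cells 3 of 15 were higher and 5 lower, with a median of -0.50, beside 20.6% and 13.5% of all genes.

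The cysteine cathepsins, lysosomal proteases of which SERPINB3 and SERPINB13 inhibit some, differed among themselves. They were listed as a family, cathepsin B included, and not each as a target of these members. CTSB, which encodes cathepsin B, had 5705 counts in parental, 36529 in adriamycin-resistant and 4522 in paclitaxel-resistant cells, 4.38-fold higher in adriamycin-resistant (4.25 to 4.50) and 1.95-fold lower in paclitaxel-resistant cells. CTSL (cathepsin L) had 288, 1161 and 2029 counts and was 2.75-fold (2.42 to 3.15) and 4.57-fold (4.04 to 5.19) higher in the resistant lines. CTSS (cathepsin S) had 309, 109 and 159 counts, with fold changes of 0.241 and 0.334. CTSB was thus highest in adriamycin-resistant, CTSL in paclitaxel-resistant and CTSS in parental cells. CTSV (cathepsin V) had 687, 629 and 1130 counts, with fold changes of 0.626 (0.561 to 0.698) and 1.07 (0.969 to 1.17). CTSK (cathepsin K) had 84, 95 and 100 counts, with intervals against parental cells that included no change. FURIN, which encodes the convertase inhibited by SERPINB8, had 1465, 1145 and 1593 counts and was 1.87-fold lower in adriamycin-resistant and 1.42-fold lower in paclitaxel-resistant cells, while SERPINB8 was higher in both. KLK5 and KLK7, epidermal kallikreins, were 4.70-fold and 10.9-fold lower in paclitaxel-resistant cells.

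Several chromosome 18 members are squamous epithelial genes, so a list of 28 squamous genes was set beside them. Of the 20 compared in adriamycin-resistant cells, 7 stood 2-fold or more above parental cells and 6 stood 2-fold or more below, with a median log2 fold change of -0.05, where 11.1% and 11.3% of all genes compared did. In paclitaxel-resistant cells 4 of 20 were higher and 7 lower, with a median of -0.29, where 20.6% and 13.5% of all genes were. CSTA, which encodes the cysteine protease inhibitor cystatin A, went from 0 counts in parental cells to 950 in adriamycin-resistant and 113 in paclitaxel-resistant cells, at least 216-fold and at least 24.4-fold higher. TP63 was 31.0-fold (23.7 to 41.4) and 6.64-fold (5.02 to 8.95) higher. KRT13 had 25, 327 and 593 counts and was 8.94-fold and 15.4-fold higher. In the other direction, KRT14 had 2347, 515 and 474 counts and was 6.67-fold and 7.64-fold lower, and S100A7 was 6.12-fold lower in adriamycin-resistant cells. PI3, which encodes the elastase inhibitor elafin, was 2.17-fold higher in adriamycin-resistant and 7.75-fold lower in paclitaxel-resistant cells. SPRR1A, SPRR3, DSG1 and DSG3, genes of stratified epithelium, were at 0 counts in every library. Genes of the list thus differed in both directions in each comparison.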

How the data were processed

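RNA was sequenced from parental, adriamycin-resistant and paclitaxel-resistant MM468 cells, with 1 library per line, prepared with a TruSeq Stranded mRNA kit and sequenced at a service company. For each of 46427 genes the authors deposited a raw read count per library, together with their own FPKM and TPM values. The submitters' processing notes name Trimmomatic 0.39, HISAT2 2.2.1, StringTie 2.2.1 and the build GRCh38, without roles. Use of strand in the counting, a filter and a test for these data are not given in the sources used here.

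Effective library sizes were computed with TMM in edgeR 4.0.16 (R 4.3.3) over all 3 libraries, on genes with 10 or more counts in at least 1. A fold change was the ratio of 2 scaled counts without a prior count, 0 counts being set to 3. No fold change was given where both libraries held 3 or fewer counts. Exact 95% binomial intervals were computed with SciPy 1.17.1 and cover counting error only. With 1 library per line, no test, SD or p-value was computed. Depth was 32704885 to 47567927 counts. The scripts were tested on simulated data.

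The members and gene lists were chosen with earlier results of these data known. The members were all described. Other list genes were named when at least 4-fold changed with 100 or more counts in 1 of the 2 libraries, or as partners of a member. Some were named outside this rule, among them S100A10, SERPINH1, CASP1, CASP4 and the genes at 0 counts SPRR1A, SPRR3, DSG1 and DSG3. Some genes of the lists are not reported here. Cluster neighbors were the 5 nearest protein-coding genes of the table on each side and those inside. As alternatives, counts were scaled by library size alone, by TMM on each pair or by size factors of DESeq2 1.42.0. A prior count of 2, a 4-fold threshold and a count minimum of 100 or none were also tried, as were FPKM with a pseudocount of 1, and TPM with a pseudocount of 1 or 0.1. Positions and promoters are those of RefSeq GRCh38.p14, in which all 10 members were found, and shared transcript stretches were counted in GENCODE v29.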

Additional observations from a re-analysis of the deposited data

How the results depend on the processing

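No paired analysis was possible because each line has 1 library, and no library could be left out for the same reason. No member at least 2-fold changed turned to the opposite direction under the alternatives run. The 6 members at least 2-fold higher in adriamycin-resistant than in parental cells became 3 (SERPINB2, SERPINB3 and SERPINB7) with a minimum of 100 counts and with FPKM and a pseudocount of 1. The 3 higher in paclitaxel-resistant cells became 1 (SERPINB8) with that FPKM setting. Between the resistant lines, the 4 members higher in adriamycin-resistant cells became 2 (SERPINB2 and SERPINB3) at a 4-fold threshold, with FPKM and with TPM and a pseudocount of 1, and the 2 lower members became 1 (SERPINB13) at 4-fold and 0 with FPKM. A pseudocount of 1 pulls low FPKM and TPM values toward no change by construction. Of 196 log2 values of single members under alternatives, 131 stayed within the counting interval, and 12 had the opposite sign, of SERPINB1 between the resistant lines and of SERPINB5 and SERPINB7 between paclitaxel-resistant and parental cells.

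Over all genes, library size alone moved the median log2 fold change from 0.08 to 0.30 in paclitaxel-resistant against parental cells, and from -0.07 to -0.28 between the resistant lines. The share of higher genes among those at least 2-fold changed moved from 60.4% to 71.2% in the former (71.2% and 75.5% with TPM and a pseudocount of 1 and 0.1) and from 39.8% to 28.5% in the latter (23.4% and 21.8% with TPM). A minimum of 100 counts moved the split to 47.9% and 51.3%. In adriamycin-resistant cells TPM with a pseudocount of 1 moved it from 49.5% to 39.5%. The numbers of genes higher and lower in adriamycin-resistant than in parental cells, 1986 and 2027, became 825 and 1031 with a minimum of 100 counts, 653 and 720 at 4-fold, 460 and 663 with FPKM and 707 and 1085 with TPM (pseudocount 1). In paclitaxel-resistant cells 3931 and 2573 became 1587 and 1728, 1483 and 875, 1374 and 882, and 2607 and 1055 in the same order, and 1580 were lower with TPM and a pseudocount of 0.1. Between the resistant lines 2566 and 3878 became 1720 and 1633, 776 and 1598, 781 and 1334, and 871 and 2850, and 1446 were higher with TPM and a pseudocount of 0.1.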

Other observations

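Serpins of the other clades were set beside the members. Of the 23 genes, most secreted, 9 were compared between paclitaxel-resistant and parental cells, with 5 at least 2-fold higher, 3 at least 2-fold lower and a median log2 fold change of 1.08, where 20.6% and 13.5% of all genes were higher and lower. SERPINI1, which encodes neuroserpin, an inhibitor of tissue plasminogen activator, had 7 counts in parental, 25 in adriamycin-resistant and 705 in paclitaxel-resistant cells, and was 65.3-fold higher in paclitaxel-resistant than in parental cells (31.5 to 163). SERPINA1, which encodes alpha-1-antitrypsin, had 0, 2 and 334 counts, at least 72.2-fold higher in paclitaxel-resistant than in parental cells. SERPINI1 was thus highest in paclitaxel-resistant and lowest in parental cells, as SERPINB8 and SERPINB13 were. SERPINA1 was also highest in paclitaxel-resistant cells, but its 0 and 2 counts in parental and adriamycin-resistant cells are too few to be ordered. SERPINE2, an inhibitor of thrombin and plasminogen activators, had 126, 85 and 531 counts and was 5.93-fold lower in adriamycin-resistant than in paclitaxel-resistant cells. SERPINH1, the collagen chaperone of the endoplasmic reticulum, had 4079, 10892 and 13266 counts, 1.82-fold and 2.11-fold higher than in parental cells.

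In adriamycin-resistant against parental cells, 8 of the 23 were compared, with 2 at least 2-fold higher, 2 lower and a median of 0.22, where 11.1% and 11.3% of all genes were. CASP1 and CASP4, inflammatory caspases listed among the proteases, had 418, 2173 and 1445, and 1276, 4990 and 5720 counts. CASP1 was 3.55-fold and 2.24-fold, and CASP4 2.67-fold and 2.91-fold, higher in adriamycin-resistant and paclitaxel-resistant than in parental cells. These 2 caspases were named after their values were seen.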
